A study of Mus musculus with 6 samples.

Results

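The genes described here are 10 mouse genes of cell adhesion: the syndecans Sdc1, Sdc3 and Sdc4, the tensins Tns1 and Tns3, the focal adhesion genes Tln1 (talin), Vcl (vinculin), Pxn (paxillin) and Zyx (zyxin), and Acta2 (smooth muscle alpha-actin). They were chosen by name from the 19162 genes of the deposited count table, with earlier results of the same libraries known. The choice therefore used the comparison between added potassium chloride and control. The changes of these 10 genes in that comparison are given as a description and carry no support of their own. All 10 were found in the table and all 10 passed the filter on low counts.

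Marrow cells from C57BL/6J mice were kept for 4 days in 40 ng/mL GM-CSF, a growth factor of myeloid cells, and their messenger RNA was sequenced. The control group had GM-CSF only, and the KCl group had GM-CSF and 34.7 mM of extra KCl. The series calls the cells myeloid-derived suppressor cells, immature myeloid cells that restrain T cells, and the labels name no sort. Each group had 3 libraries, numbered 1, 2 and 4, and no label ties a library to its own mouse or culture. The p-values therefore reflect only how these samples spread, which may be technical. The series asks what high potassium does to such cells, and no control with another salt or solute was analysed here, so potassium and osmolality cannot be told apart. In a bulk culture, fewer cells of a type and less RNA per cell cannot be told apart either.

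Focal adhesions are protein assemblies that tie the matrix outside a cell to actin filaments inside it. Integrins bind the matrix, talin links integrins to actin, vinculin reinforces that link under tension, and paxillin and zyxin are LIM-domain scaffolds that recruit signalling and actin-assembly proteins. Syndecans are transmembrane proteoglycans whose heparan sulfate chains bind matrix and growth factors beside the integrins, and tensins bridge integrin tails and actin in mature adhesions. Myeloid cells use small, short-lived versions of these assemblies, podosomes included, to adhere and migrate.

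The library totals ran from 14118724 to 21694831 counts. Replicate 4 stood apart. In 8231 genes averaging 300 counts or more, the mean CPM of control 4 and KCl 4 tracked the mean of the remaining 4 libraries more closely than counting allows, with an SD of the log2 ratio of 0.00953 against 0.0442 from counting noise and 0.123 to 0.262 for the 14 other pairs. Control 4 and KCl 4 were thus not independent of the rest. P-values from all 6 may be too small. The text gives values without replicate 4 for the 10 genes and for some of the relatives and markers named, and as counts for the lists together. CPM here is the read count scaled to library size after TMM normalization, and FPKM is the deposited level per length of transcript. A gene was called where edgeR's quasi-likelihood test gave a Benjamini-Hochberg adjusted p under 0.05 over the 13326 genes tested. That rule called 22.9% of all tested genes, 12.4% higher in KCl and 10.5% lower, and without replicate 4 it called 0.458% of 13525 tested genes.

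Of the 10 genes, Sdc1, Tns1, Acta2, Tns3 and Pxn were called higher in KCl, Sdc3 was called lower, and Sdc4, Tln1, Vcl and Zyx did not pass. The share called was 60% of the 10 against 22.9% of all genes, and nothing is read from it because the genes were chosen on this comparison. The CPM of the groups did not overlap for 6 of the 10, which are the 6 called genes, while 38.5% of all tested genes had groups without overlap. Their median log2 fold change was 0.39, and the median of all tested genes was -0.0045. With libraries 1 and 2 alone, Sdc1 and Tns1 kept their call and the other 4 did not.

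**Figure D1:**
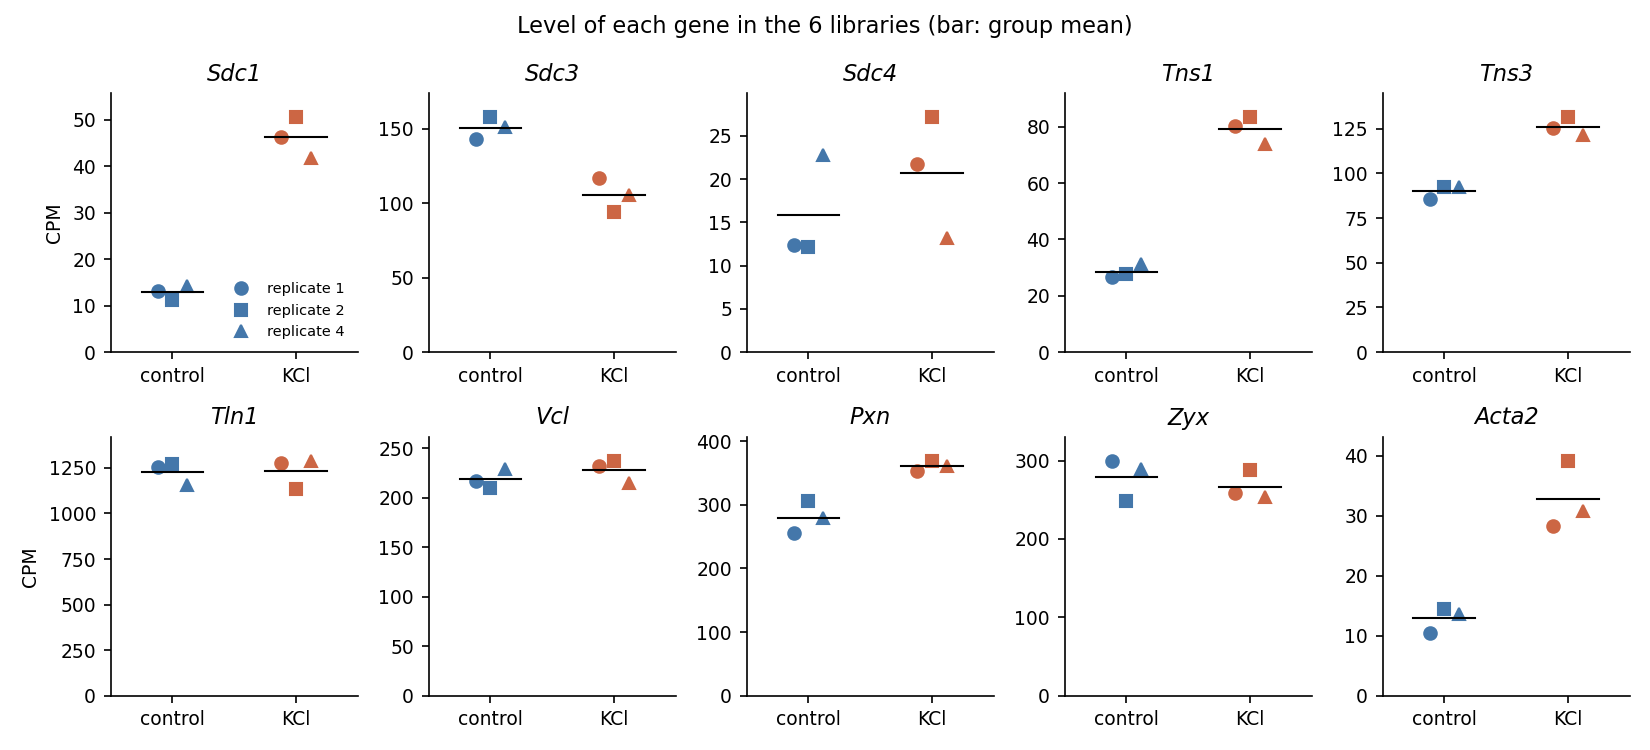
TMM-scaled CPM of each of the 10 genes (vertical axes, linear from 0) in control and KCl, 1 point per library with its shape giving the replicate, and the group mean as a line. Sdc1, Tns1, Tns3, Pxn and Acta2 have every KCl library above every control library, Sdc3 has the reverse, and the groups overlap in Sdc4, Tln1, Vcl and Zyx.

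Per length of transcript, the 10 genes spanned a wide range. In control, mean FPKM was 108 for Tln1, 42.2 for Vcl, 31.3 for Zyx, 21.8 for Sdc3, 20.0 for Pxn, 7.67 for Tns3, 7.29 for Acta2, 5.51 for Sdc4, 2.01 for Sdc1 and 1.13 for Tns1. The ranges of Sdc3 and Pxn overlapped, as did those of Tns3, Acta2 and Sdc4, so the order within each of these sets is not beyond the spread of the libraries. In KCl, mean FPKM was 108 for Tln1, 43.3 for Vcl, 29.5 for Zyx, 25.5 for Pxn, 18.2 for Acta2, 15.03 for Sdc3, 10.6 for Tns3, 7.11 for Sdc1, 7.09 for Sdc4 and 3.08 for Tns1. There the ranges of Acta2 and Sdc3 overlapped, and so did those of Sdc1 and Sdc4. Tln1 thus had the highest FPKM of the 10 in both groups and Tns1 the lowest. The order between them depends on the lengths used: the FPKM implies 5229 bases for Vcl, 8972 for Zyx and 14069 for Pxn, where GENCODE has 8191, 5390 and 8195 exonic bases. With the GENCODE lengths, a comparison added after the data were seen, mean control CPM per kilobase was 125 for Tln1, 51.8 for Zyx, 34.2 for Pxn and 26.7 for Vcl, so Vcl came after Zyx and Pxn. Tln1 was still highest there and Tns1 lowest, at 1.79.

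Sdc1 encodes syndecan-1, a heparan and chondroitin sulfate proteoglycan known from plasma cells and epithelia and also found on macrophages. It lies on mm10 chromosome 12 from 8771323 to 8793715 on the plus strand (ENSMUSG00000020592) and overlaps no other annotated gene. Its CPM was 13.2, 11.1 and 14.3 in control 1, 2 and 4 and 46.2, 50.6 and 41.9 in KCl 1, 2 and 4. The lowest KCl library was well above the highest control library. The log2 fold change was 1.85 ± 0.12 (SE, 3 libraries a group), a 3.60-fold rise with a 95% interval of 2.95 to 4.40. Without replicate 4 it was 1.99, with an edgeR adjusted p of 0.0273, and the call held with each single library left out.

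Sdc3 encodes syndecan-3, best known from neurons and also made by myeloid cells, and it was the syndecan with the highest FPKM in both groups. Its CPM was 143, 158 and 152 in the controls against 117, 94.1 and 105 with KCl. All KCl libraries were below all control libraries, by less than the distance seen for Sdc1. The log2 fold change was -0.52 ± 0.09. Without replicate 4 it was -0.51, with an edgeR adjusted p of 0.100, and the call was lost. Sdc3 (mm10 chromosome 4, 130792537 to 130826319, plus strand) shares 48 and 415 exonic bases with the antisense genes Gm12970 and Gm26716, whose reads cannot be told apart from its own where strand was not counted.

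Sdc4 encodes syndecan-4, the ubiquitous syndecan of focal adhesions that binds protein kinase C alpha. It lies on mm10 chromosome 2 from 164424247 to 164443887 on the minus strand. Its CPM was 12.4, 12.2 and 22.8 in the controls against 21.8, 27.2 and 13.2 with KCl. Replicates 1 and 2 were higher in KCl, replicate 4 was higher in control, and the groups overlapped. Sdc4 had the widest spread of the 10, with a coefficient of variation of 38.4% in control and 34.1% in KCl, where the other 9 had at most 17.4%. The log2 fold change was 0.40 ± 0.35, with a 95% interval of -0.44 to 1.25, and it did not pass. Without replicate 4 it was 0.99, with an edgeR adjusted p of 0.0686, and the log2 ratio of KCl 4 to control 4 was -0.79. The mean of control 4 and KCl 4 nevertheless stood at a log2 ratio of -0.03 to the mean of the remaining 4 libraries.

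The fourth family member, Sdc2, was low. Its CPM was 1.71, 0.92 and 1.34 in the controls against 2.57, 2.80 and 2.66 with KCl, and it rose by a log2 fold change of 1.01 ± 0.24 with an edgeR adjusted p of 0.0275. That call was lost without control 4 (0.0906), KCl 1 (0.0628), KCl 2 (0.0792) or KCl 4 (0.0897), and without replicate 4 (0.160).

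The summed FPKM of the 4 syndecans averaged 29.7 ± 2.40 in control and 29.9 ± 2.67 in KCl (SD, n = 3), while its make-up differed. By library the sum was 27.6, 29.0 and 32.3 in control 1, 2 and 4 against 32.4, 30.3 and 27.1 in KCl 1, 2 and 4. Replicates 1 and 2 were higher in KCl and replicate 4 was lower, so the close means rest on replicate 4. Sdc1 took 6.80% ± 0.755 of the sum in control and 23.8% ± 1.37 in KCl. Sdc3 took 73.7% ± 5.67 in control and 50.4% ± 6.86 in KCl. These shares did not overlap between groups for either gene, and that of Sdc4 did, at 14.6% to 24.5% in control and 17.0% to 29.9% in KCl. The Sdc4 share was 15.7% and 14.6% in control 1 and 2 against 23.5% and 29.9% in KCl 1 and 2. In replicate 4 it ran the other way, at 24.5% in control and 17.0% in KCl. The shares rest on the transcript lengths in the deposited FPKM. With the GENCODE exonic lengths, Sdc1 took 9.63% in control and 31.4% in KCl, Sdc3 took 71.9% and 45.8%, and the sum was 35.2 and 38.6 CPM per kilobase.

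**Figure D2:**
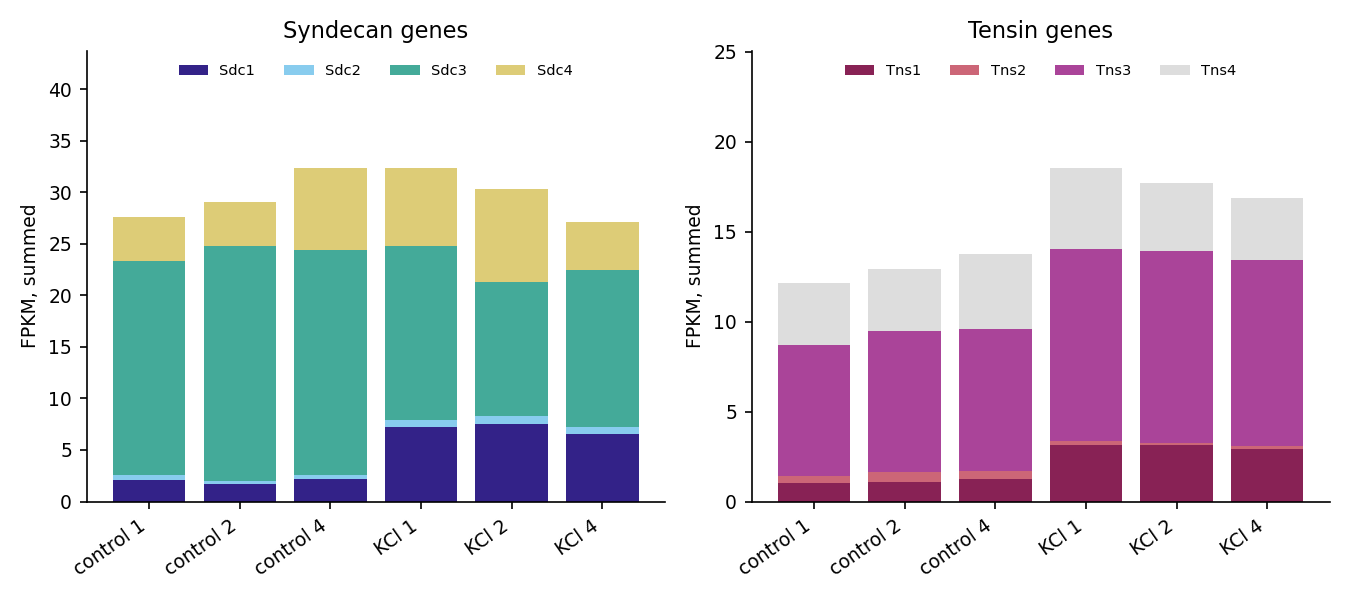
FPKM of the syndecan family and of the tensin family stacked by gene (vertical axis, FPKM), 1 bar per library. Sdc1 grows from 6.80% to 23.8% of the syndecan sum while Sdc3 shrinks from 73.7% to 50.4%, and the tensin sum is taller in every KCl library.

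Tns1 encodes tensin-1, which binds integrin tails and actin in fibrillar adhesions. It lies on mm10 chromosome 1 from 73910231 to 74124449 on the minus strand (ENSMUSG00000055322) with no overlapping gene. Its CPM was 26.6, 27.9 and 31.2 in the controls against 80.1, 83.4 and 74.0 with KCl. Every KCl library was above every control library, with little spread inside either group. The log2 fold change was 1.47 ± 0.08, a 2.78-fold rise. Without replicate 4 it was 1.58, with an edgeR adjusted p of 0.0187, and the call held with each single library left out. Tns1 had the lowest FPKM of the 10 in both groups.

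Tns3 encodes tensin-3, another integrin-tail adaptor, and made up most of the tensin FPKM. It lies on mm10 chromosome 11 from 8431652 to 8664535 on the minus strand. Its CPM was 85.5, 92.2 and 92.7 in the controls against 125, 132 and 122 with KCl. The groups did not overlap, and the log2 fold change was 0.49 ± 0.06, a 1.40-fold rise. Without replicate 4 the fold change was 0.53 and the edgeR adjusted p 0.0686, so the call was lost while the size stayed near.

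Tns2, a further tensin of this adaptor kind, fell by 1.4997 ± 0.31 on the log2 scale with an edgeR adjusted p of 0.0177. It was low in both groups, at 1.95, 2.88 and 2.68 CPM in the controls against 1.16, 0.52 and 0.94 with KCl, and its call was lost without control 4 (0.0624) or KCl 4 (0.0619), and without replicate 4 (0.125). Tns4, a short tensin without the actin-binding part, had a log2 fold change of 0.11 ± 0.13 and did not pass (edgeR adjusted p = 0.633). The summed tensin FPKM was 12.9 ± 0.786 in control and 17.7 ± 0.837 in KCl (SD, n = 3). Tns1 took 8.71% of it in control and 17.4% in KCl, and Tns3 took 59.3% and 59.7%. With the GENCODE lengths these shares were 12.2% and 23.5% for Tns1 and 55.1% and 53.6% for Tns3.

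Sdc1 and Tns1 were the 2 genes called with and without replicate 4, so stretches ahead of their start sites are shown. They come from RefSeq windows of 300 bases (250 before to 50 after the start) on GRCm38.p6, and 9 of the 10 genes had a window, the exception being Pxn. Sdc1 is printed from chr12:8771182-8771322 on the plus strand and Tns1 from chr1:74124549-74124798 on the minus strand. The Tns1 stretch runs up to the RefSeq start, whereas that of Sdc1 ends at the base before the GENCODE gene, which begins ahead of the RefSeq start. No letters are in capitals because no motif searched for was found in them.
Sdc1: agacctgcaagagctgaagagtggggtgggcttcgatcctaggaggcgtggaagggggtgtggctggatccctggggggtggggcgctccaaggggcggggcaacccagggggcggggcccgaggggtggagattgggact
Tns1: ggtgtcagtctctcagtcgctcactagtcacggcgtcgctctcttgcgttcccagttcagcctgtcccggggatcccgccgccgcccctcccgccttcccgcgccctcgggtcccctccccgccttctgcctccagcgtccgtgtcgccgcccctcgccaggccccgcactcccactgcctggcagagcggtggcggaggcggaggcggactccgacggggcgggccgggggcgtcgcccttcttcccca
Neither window holds the CArG box bound by serum response factor (searched by its consensus), the TEAD motif GGAATG or the AP-1 motif TGANTCA on either strand. Of all 32851 windows of that length, 1.63% hold the CArG box, 14.7% GGAATG and 7.81% TGANTCA. The motifs are short matches of letters that can overlap one another, and no match says only that these letters are not in the window. Sdc3, Sdc4, Tns3 and Tln1 hold none of the 3 either.

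Talin, the product of Tln1, activates integrins and carries their pull to actin. Tln1 CPM was 1252.5, 1271 and 1159 in the controls against 1279, 1133 and 1291 with KCl. The groups overlapped, and the log2 fold change was 0.01 ± 0.07 with a 95% interval of -0.17 to 0.19. Its sign turned under 3 of the other scalings or filters and without replicate 4, where it was -0.07. Tln2, the second talin, had -0.02 ± 0.21 and did not pass (edgeR adjusted p = 0.95).

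Vinculin, encoded by Vcl, binds stretched talin and actin. Vcl CPM was 217, 210.4 and 230 in the controls against 233, 238 and 215 with KCl. The groups overlapped, and the log2 fold change was 0.06 ± 0.06 with a 95% interval of -0.09 to 0.21. The log2 fold change was 0.14 without replicate 4 and did not pass there.

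Zyxin, encoded by Zyx, moves to stretched actin fibres and recruits assembly factors. Zyx CPM was 299.995, 248 and 289 in the controls against 259, 288 and 254 with KCl. The groups overlapped, with a log2 fold change of -0.07 ± 0.09 and a 95% interval of -0.28 to 0.15, and without replicate 4 it was -0.0053. For these 3 genes the intervals bound the change in either direction, and a test that does not pass does not show that the levels were the same. Tln1 (chromosome 4, 43531519 to 43562691), Vcl (chromosome 14, 20929398 to 21033676) and Zyx (chromosome 6, 42349630 to 42360213) share 360, 2090 and 236 exonic bases with Creb3, Ap3m1 and Epha1 on the opposite strand, so some of their reads may belong to those neighbours.

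Paxillin, encoded by Pxn, is a scaffold for focal adhesion kinase and small-GTPase regulators. The gene lies on mm10 chromosome 5 from 115506676 to 115555987 on the plus strand. Pxn CPM was 255, 306 and 279 in the controls against 354, 369.5 and 360.5 with KCl. The groups did not overlap, and the log2 fold change was 0.37 ± 0.07, a 1.29-fold rise with an edgeR adjusted p of 0.0176. Of the 6 called genes it was the one that lost its call when a single library was left out: the adjusted p was 0.0663 without control 4, 0.0517 without KCl 1, 0.0552 without KCl 2 and 0.0618 without KCl 4. The fold change without replicate 4 was 0.36, with an edgeR adjusted p of 0.122.

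**Figure D3:**
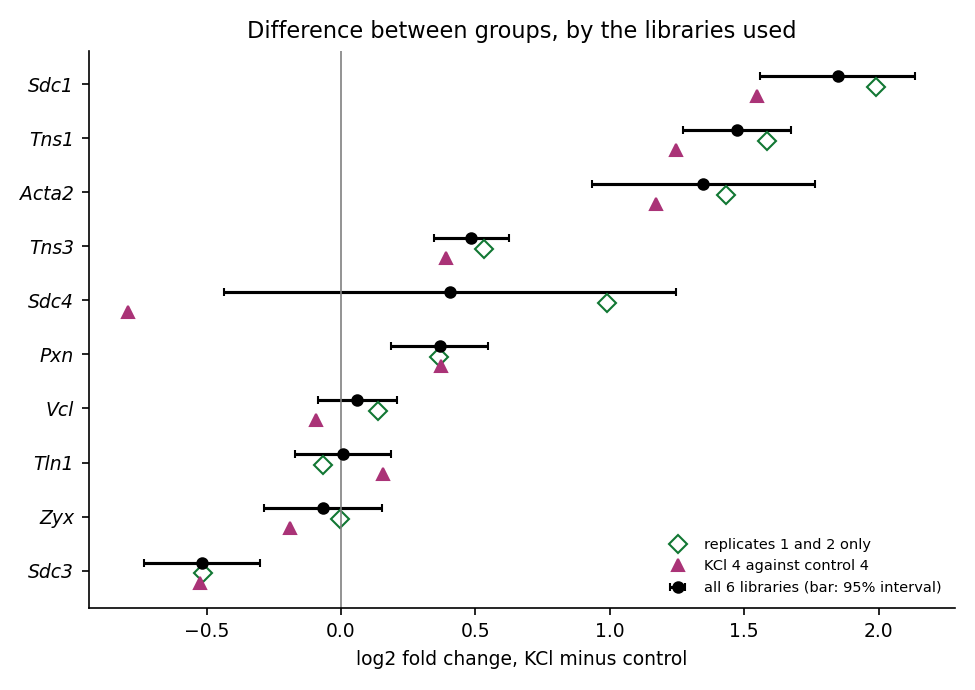
Log2 fold change of KCl over control for the 10 genes (horizontal axis) from all 6 libraries (circles with the 95% interval), from replicates 1 and 2 only (diamonds) and as the ratio of KCl 4 to control 4 (triangles). The intervals of Sdc1, Tns1 and Acta2 lie above 0.9, those of Tln1, Vcl, Zyx and Sdc4 span 0, and the value of Sdc4 is 0.40 from all 6 libraries, 0.99 without replicate 4 and -0.79 in replicate 4.

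Acta2 encodes the alpha-actin of smooth muscle and myofibroblasts, a filament actin not typical of leukocytes. It lies on mm10 chromosome 19 from 34241090 to 34255590 on the minus strand (ENSMUSG00000035783) with no overlapping gene. Its CPM was 10.5, 14.5 and 13.7 in the controls against 28.3, 39.2 and 30.9 with KCl. All KCl libraries were above all control libraries. The log2 fold change was 1.348 ± 0.17, a 2.55-fold rise. Without replicate 4 it was 1.43 with an edgeR adjusted p of 0.0708, so the call was lost while the size stayed near.

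None of the other actins and smooth muscle contractile genes that could be tested was called higher beside Acta2. Of 19 listed actins and contractile genes, 18 were in the table and 10 passed the filter on low counts, of which 0 rose and 2 fell in edgeR's test. Tagln (transgelin) had 10, 10 and 9 counts in the controls against 7, 9 and 5 with KCl. Myh11, the smooth muscle myosin heavy chain, had 28, 11 and 15 counts in the controls against 1, 2 and 0 with KCl, and Myl9, a myosin light chain, had 11, 10 and 9 in the controls against 0, 2 and 0 with KCl. Cnn1 (calponin) had 4 counts in control 1 and 0 in the other 5 libraries. With all 6 libraries these genes were below the filter and were not tested. Without replicate 4 Myh11 was tested, with a log2 fold change of -3.37 that did not pass (edgeR adjusted p = 0.100). The highest fold change in the list was that of Tpm2, singled out after its value was seen, at 0.93 ± 0.45, which did not pass (edgeR adjusted p = 0.211).

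The 2 that fell were Actg1, one of the cytoplasmic actins, and Tpm1, a tropomyosin that coats actin filaments. Actg1 CPM was 2637, 2115 and 2361 in the controls against 1081, 1218 and 1225 with KCl. No KCl library reached the lowest control library, and the log2 fold change was -1.01 ± 0.10 with an edgeR adjusted p of 0.00328. Tpm1 fell by 0.45 ± 0.06 on the log2 scale, with an edgeR adjusted p of 0.00523. Both calls held with each single library left out, and neither held without replicate 4. Actb, the other cytoplasmic actin, had a log2 fold change of -0.13 ± 0.05 and did not pass (edgeR adjusted p = 0.161). Tagln2, a transgelin of leukocytes, and Myl12a, a non-muscle myosin light chain, had -0.18 and -0.25 and did not pass. Actin genes have nearly identical coding sequences, so reads could be split between them.

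Acta2 was a small part of actin mRNA in both groups. Per length, Actb had a mean of 634 FPKM in control and 572 in KCl, Actg1 had 383 and 187, and Acta2 had 7.29 and 18.2. The sum of the 3 was 1024 FPKM ± 38.1 in control and 777 ± 15.2 in KCl (SD, n = 3). Acta2 made up 0.715% of it in control and 2.34% in KCl, or 0.258% and 0.863% with the GENCODE lengths.

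**Figure D4:**
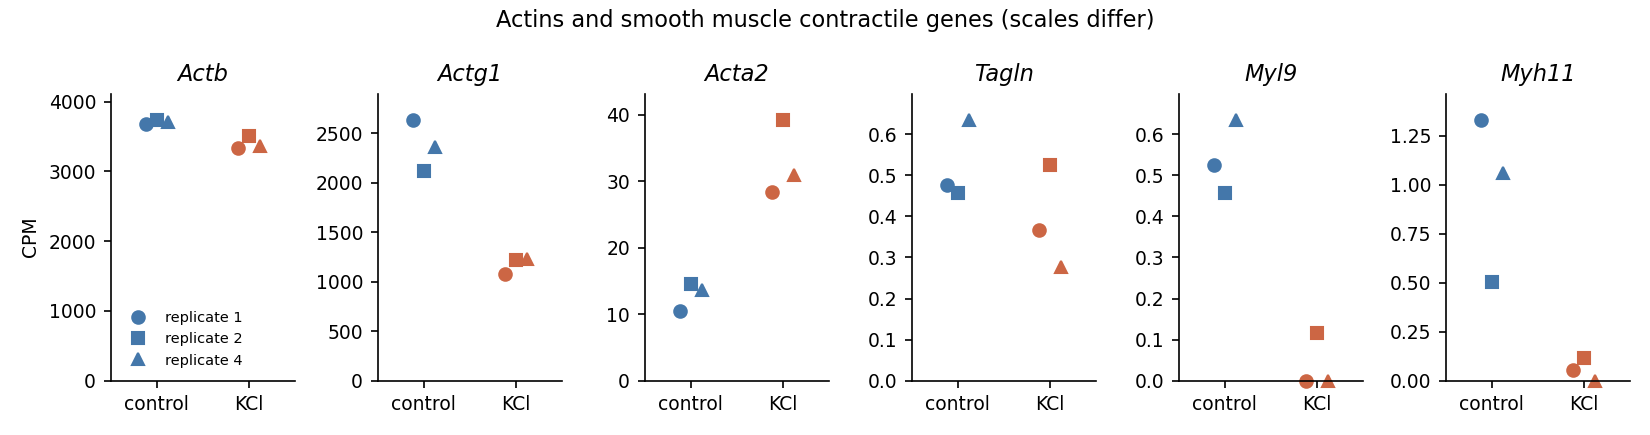
CPM in each library of the cytoplasmic actins Actb and Actg1, of Acta2 and of the smooth muscle contractile genes Tagln, Myl9 and Myh11 (vertical axes linear from 0, with a scale per panel), 1 point per library. Acta2 is higher in all 3 KCl libraries, Actg1 is lower in all 3, and Tagln, Myl9 and Myh11 stay at or under 1.33 CPM in every library.

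The promoters of Acta2 and Vcl are shown at their CArG-like letters because both are known targets of serum response factor. The Vcl window holds the CArG box 227 bases before the start, at chr14:20929161-20929190 on the plus strand. The Acta2 window holds no exact CArG box but 2 copies with 1 letter changed, a search added after the data were seen that matches 19.9% of all windows. These lie 84 and 34 bases before the RefSeq start, at chr19:34255438-34255467 and chr19:34255388-34255417 on the minus strand. The GENCODE gene of Acta2 begins ahead of that start, at 34255590, so both sites lie inside it. The match is in capitals.
Vcl: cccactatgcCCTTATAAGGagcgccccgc
Acta2, distal: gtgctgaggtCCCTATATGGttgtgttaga
Acta2, proximal: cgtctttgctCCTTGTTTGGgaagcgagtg
Both windows also hold GGAATG, 143 bases before the RefSeq start in Vcl and 146 in Acta2. The Zyx window holds TGANTCA at 121 bases before its RefSeq start. In Acta2 and Zyx these letters too lie inside the GENCODE gene, which begins ahead of the RefSeq start. Vcl, with the exact CArG box, did not pass the test, and Acta2 was called higher. A match of letters describes the window and does not by itself show binding, which was not measured here.

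The neighbouring genes of the pathway were taken as 9 lists of 128 genes that hold none of the 10, of which 125 were in the table and 109 were tested. Of these 109, 18 rose, 8 fell and 83 did not pass edgeR's test, so 23.9% were called against 22.9% of all tested genes, which is near the background. Their median log2 fold change was 0.04, and the list results that follow use all 6 libraries. By list, the share called was 50% for syndecan partners and heparan sulfate enzymes and 0% for the ILK complex. It was 15.4% to 28.6% for the other lists, against 22.9% of all tested genes. The lists were small and chosen with earlier results known, so nothing is read from the share of a single list. Without replicate 4, edgeR called 0 of 111 tested, with a smallest adjusted p of 0.0538, and 35 of the 111 had an unadjusted p under 0.05. So did 4037 of all 13525 genes tested there, and nothing is read from the 35. No other tool was run on those 4 libraries.

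**Figure D5:**
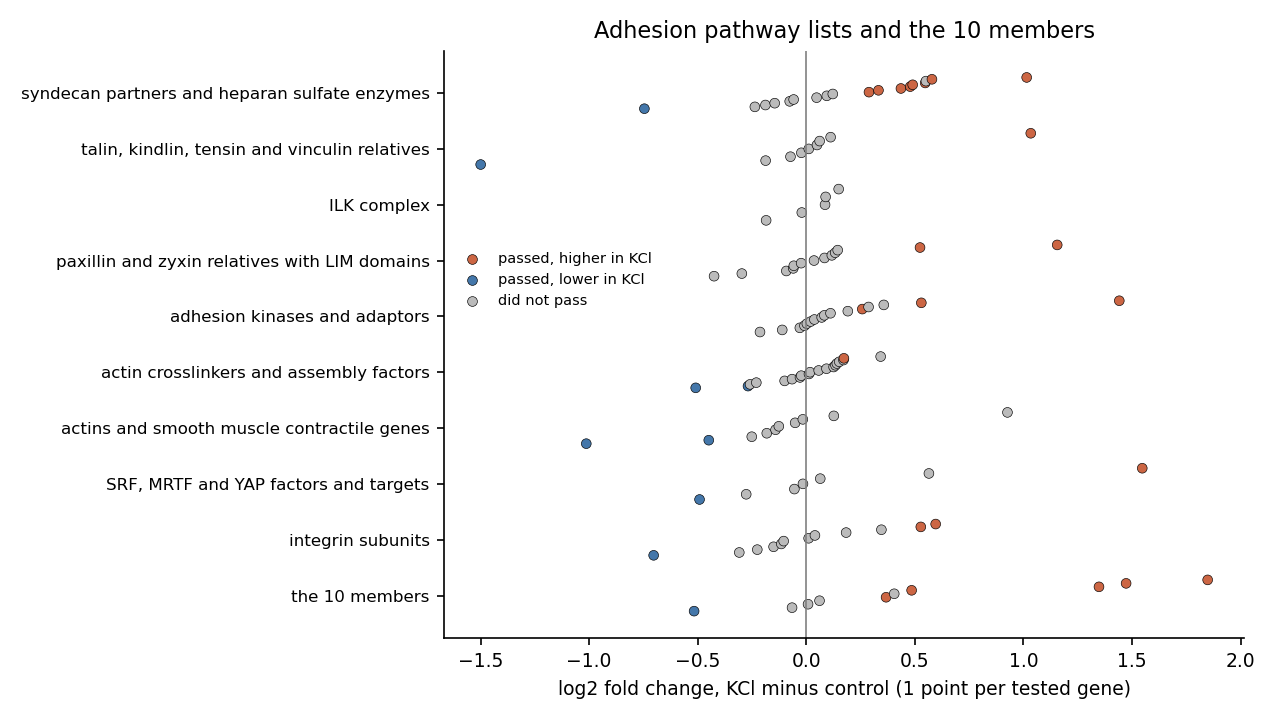
Log2 fold change of KCl over control (horizontal axis) for every tested gene of the 9 adhesion lists and for the 10 chosen genes, 1 point per gene, coloured by whether edgeR's adjusted p passed 0.05. The list of syndecan partners and heparan sulfate enzymes has 8 of 18 genes passed on the higher side, and the ILK complex has 0 of 5 passed on either side. Of all tested genes, 12.4% passed on the higher side and 10.5% on the lower side.

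Among syndecan partners and the enzymes that build or trim heparan sulfate, 8 of 18 tested rose and 1 fell, with a median log2 fold change of 0.21. Of all tested genes, 12.4% rose and 10.5% fell. The genes that rose do opposing things to the chains. Ndst2 and Xylt1 act in chain synthesis, with log2 fold changes of 0.44 ± 0.07 and 0.49 ± 0.07 (edgeR adjusted p = 0.00842 and 0.00717). Sulf2, which removes sulfate groups, rose by 0.55 ± 0.07 and Hpse, the heparanase that cuts the chains, rose by 0.48 ± 0.06 (edgeR adjusted p = 0.00485 and 0.00572). All 4 calls held with each single library left out, and none held without replicate 4 (edgeR adjusted p = 0.0686 to 0.0864). Sdc2, Ndst1, Sdcbp and B4galt7 also rose, and Ext1, a polymerase of the chains, fell by 0.75 on the log2 scale. The call of Ext1 was lost without any 1 library other than control 2 (up to 0.108), that of Sdcbp without control 1, control 4 or KCl 4 (up to 0.0748) and that of B4galt7 without control 4 (0.0580). Ndst1, Sdcbp, B4galt7 and Ext1 were named after their values were seen.

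Among relatives of talin, kindlin, tensin and vinculin, 1 of 9 tested rose and 1 fell. The gene that rose was Kank2, a talin-binding protein, by 1.03 ± 0.19 (edgeR adjusted p = 0.0122) from a low 2.48, 3.89 and 3.32 CPM in the controls to 6.09, 7.41 and 6.36 with KCl, and the gene that fell was Tns2. Ctnna1, alpha-catenin, had -0.19 ± 0.10 and did not pass (edgeR adjusted p = 0.283). In the complex of integrin-linked kinase, 0 of 5 passed the edgeR test. Without replicate 4, 1 of the 5 had an unadjusted p under 0.05, where 4037 of all 13525 tested genes did. The kinase gene Ilk had 0.15 ± 0.06, its partners Lims1 and Parvb each had 0.09, and the parvin gene Parvg had -0.19 ± 0.06.

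Among LIM-domain relatives of paxillin and zyxin, 2 of 13 tested rose and 0 fell. Lpxn encodes leupaxin, the paxillin relative of blood cells, and rose by 0.52 ± 0.09 with Pxn (edgeR adjusted p = 0.0095). Trip6, a zyxin relative, rose by 1.16 ± 0.15 (edgeR adjusted p = 0.00523), from 3.24, 2.52 and 3.18 CPM in the controls to 7.41, 5.95 and 6.47 with KCl. Limd1 and Wtip, of the same LIM group, had 0.13 and -0.42 and did not pass.

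Among adhesion kinases and adaptors, 3 of 16 tested rose and 0 fell. Sorbs3, which encodes the vinculin-binding vinexin, rose by 1.44 ± 0.25 (edgeR adjusted p = 0.0104) but was low, at 1.14, 0.73 and 1.06 CPM in the controls against 2.15, 3.21 and 2.60 with KCl. The tyrosine kinase gene Src rose by 0.53 ± 0.13 and Git2, a paxillin-binding regulator of ARF, by 0.26 ± 0.06 (edgeR adjusted p = 0.0323 and 0.0238). The call of Src was lost without control 4 or any 1 of the KCl libraries (0.0817 to 0.0989), and that of Git2 without any 1 library other than KCl 2 (0.0562 to 0.0861) and with upper-quartile or library-size scaling (0.0537 and 0.0521).

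Among actin crosslinkers and assembly factors, 1 of 19 tested rose and 2 fell. Actn1, alpha-actinin, fell by 0.27 ± 0.06 and Cttn, cortactin, fell by 0.51 ± 0.12 on the log2 scale (edgeR adjusted p = 0.0261 and 0.0284), and Was, the WASP protein of podosomes, rose by 0.17 ± 0.04 (0.0289). The call of Actn1 was lost without control 1, control 4, KCl 1 or KCl 4 (0.0599 to 0.0983), that of Cttn without any 1 library other than control 2 (0.05001 to 0.0931), and that of Was without any 1 of the 6 (0.0596 to 0.127), with upper-quartile or library-size scaling (0.0748 and 0.0552) and with no filter (0.0794). Sh3pxd2a, a podosome scaffold, had 0.34 ± 0.10 and did not pass (edgeR adjusted p = 0.0542).

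Among the SRF, MRTF and YAP factors and their targets, 1 of 7 tested rose and 1 fell. Egr1, an immediate early gene, fell by 0.49 ± 0.07 on the log2 scale (edgeR adjusted p = 0.00621), and Mkl1, which encodes MRTF-A, had 0.06 and did not pass. Wwtr1, which encodes TAZ, rose by 1.55 ± 0.33 (edgeR adjusted p = 0.0194) at under 1 CPM in every library, and its call was lost without any 1 library other than control 2 (0.0512 to 0.0862) and in DESeq2 (0.118). Fos had 0.56 ± 0.34, with overlapping groups. Of 12 integrin subunits tested, 2 rose and 1 fell. Itgal (0.60 ± 0.10) and Itgb5 (0.53 ± 0.07) were higher, and Itgax (-0.70 ± 0.05) was lower. These calls held with each single library left out, and none held without replicate 4 (edgeR adjusted p = 0.0538 to 0.0847). Itga6, the laminin-binding alpha subunit, had -0.31 and did not pass.

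Markers of cell types that make Sdc1 or Acta2 were set beside the genes. Summed CPM of the 10 stromal and fibroblast markers lay between 13.3 and 19.1 in control libraries and between 15.9 and 22.3 with KCl, and 1 of 8 tested, Col1a1, rose by 0.49 (edgeR adjusted p = 0.026). That call was lost without any 1 library other than KCl 1 (up to 0.0967) and without replicate 4 (0.162). Dcn, a proteoglycan of fibroblasts singled out after its values were seen, had 12, 13 and 11 counts in the controls against 9, 3 and 0 with KCl and did not pass (edgeR adjusted p = 0.212). Pdgfrb had 2.48, 2.43 and 2.40 CPM in the controls against 4.25, 2.92 and 3.54 with KCl. It did not pass (edgeR adjusted p = 0.0624), though it did without KCl 2 (0.0365). Lepr had a log2 fold change of 0.34 and Cxcl12 -0.38, both with overlapping groups, and neither passed. Without replicate 4 Lepr had 0.97 and Cxcl12 -0.30, and neither passed there (edgeR adjusted p = 0.160 and 0.656). The 8 plasma and B cell markers, of which Tnfrsf17 was not among the rows used, summed to 14.1 to 23.2 CPM in control and 18.5 to 31.3 in KCl, with 1 of 7 higher (Ms4a1). The call of Ms4a1 was lost without control 2, control 4 or KCl 4 (up to 0.0725) and without replicate 4 (0.124). The stromal sum and the plasma and B cell sum overlapped between groups, with control 4 above KCl 4 in both. With libraries 1 and 2 alone neither sum overlapped. The stromal sum was then 15.2 and 13.3 CPM in control against 22.3 and 20.8 with KCl. The plasma and B cell sum was 18.1 and 14.1 CPM in control against 31.3 and 22.8 with KCl. The endothelial sum did not overlap between groups, at 75.5 to 92.5 CPM in control and 103 to 108 in KCl. Most of it was Vwf, also made by megakaryocytes, with 86.9, 70.7 and 78.3 CPM in the controls against 93.3, 95.6 and 92.7 with KCl, which did not pass (edgeR adjusted p = 0.0715). Of 4 tested, 1 was called, Tie1, higher by 1.66 ± 0.29 (edgeR adjusted p = 0.0106, and 0.0962 without replicate 4). The megakaryocyte sum ran from 138 to 292 and from 162 to 188 with 0 of 7 called. Myeloid markers summed to 14061 to 16330 CPM in control and 19096 to 25829 in KCl, so the labelled myeloid character was present in both groups. Of the 10, 5 rose, where 12.4% of all tested genes did, and these were Lyz2, Csf1r, Cebpa, Ly6c2 and Cd14. Csf1r lost its call without control 4 or any 1 of the KCl libraries (up to 0.0568), and without replicate 4 all 5 lost it (0.0686 to 0.109). No marker was at 0 in all libraries, and the part of other cell types in the changes of Sdc1, Tns1 and Acta2 was not tested.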

How the data were processed

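RNA was isolated with Trizol and read on a NovaSeq sequencer, per the labels' protocols. The tools HISAT2 (2.0.4), StringTie (1.3.3b) and edgeR and the build mm10 appear in the submitters' processing notes. How reads were counted, and whether by strand, is not given in the sources used here. The authors deposited whole-number counts and FPKM for 19162 genes. The deposited FPKM implied the same gene length in every library (largest relative deviation 5.05e-05 over 12489 genes), though for several genes not the annotated one (Tns1 25502 against 16010 exonic bases), and was used for levels per length only.

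The 10 genes and the 9 lists were chosen with earlier results of these data known. The test of the counts was edgeR 4.0.16 under R 4.3.3 (filterByExpr with a minimum count of 10 and total of 15, TMM, robust quasi-likelihood test, 2-sided, Benjamini-Hochberg over all 13326 tested genes). Of each list the 4 genes with the smallest p were named, with Sdc2, Tns2, Tns4, Tln2 and Actb. The values of 1 such gene are not reported here. Coordinates came from GENCODE M21, where 19049 of the 19162 IDs matched. Alternatives were other scalings (RLE, upper quartile, library size), omitting the filter, requiring a mean CPM of 5, a replicate block, libraries left out, GENCODE exonic lengths (added after the data were seen), DESeq2 1.42.0 and limma-voom (limma 3.58.1). The test was checked on simulated counts drawn independently for each library, so that check does not cover the dependence of replicate 4.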

Additional observations from a re-analysis of the deposited data

How the results depend on the processing

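Over all genes, 3057 were called, 1678 with the replicate number as a block, and 62 to 2851 with libraries left out (1439 without control 4, 1505 without KCl 4, 62 without both). For the pathway lists the count was 26, 17 with the block, and 0 to 27 with libraries left out (15 without control 4, 17 without KCl 4, 0 without both). No label ties same-numbered libraries, and whether the numbers pair them could not be judged from the data: their deviations correlated at 0.02, -0.06 and -0.75, values that the dependence of replicate 4 on the rest also affects. With the block Sdc3 had an edgeR adjusted p of 0.0523, and 9 other named genes missed the threshold (Sdc2, Ndst2, Tns2, Src, Git2, Sorbs3, Actn1, Was and Wwtr1, 0.0501 to 0.121). Without both replicate-4 libraries Sdc3, Tns3, Pxn and Acta2 missed the threshold, and Sdc1 and Tns1 passed. None of the 10 genes changed its call in DESeq2 or limma-voom, with RLE, upper-quartile or library-size scaling, or with either other filter. Among the other named genes, Parvg and Tagln2 passed with upper-quartile scaling (edgeR adjusted p = 0.0499 and 0.0270). Some genes that did not pass with all 6 libraries passed with a single library left out. Itga6 did so without control 2 (edgeR adjusted p = 0.0259), and Sh3pxd2a and Tagln2 without KCl 2 (0.0359 and 0.0379). The marker Vwf did so without control 1 (0.0327). Upper-quartile scaling called 1422 genes higher and 1735 lower against 1655 and 1402. Tln1, at 0.01, turned to -0.037 with upper-quartile scaling, -0.0115 with library size and -0.0128 with no filter, and ran from -0.0667 to 0.0647 with libraries left out. Tln2, at -0.02, ran from -0.24 to 0.16 with libraries left out, and was 0.13 without control 2 and 0.16 without KCl 1. Low counts limited Sdc2, Tns2, Sorbs3 and Wwtr1, and genes under the filter were not tested.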
